A study of Mus musculus with 38 samples.

Results

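The proteasome subunit genes of mouse soleus muscle were described at the level of their transcription start sites. A start-site cluster was a member when its highest peak lay within 500 bp of the annotated 5′ end, on the same strand, of a protein-coding gene whose symbol begins with Psma, Psmb, Psmc, Psmd, Psme or Psmf followed by a digit. This rule used no expression value and found 40 clusters of 10819, 1 for each of 40 genes. The annotation held 46 such genes, and 6 of them (Psma8, Psmb9, Psmb11, Psmc2, Psmc3ip and Psme2b) had no cluster in the table, although Psmc3ip does not encode a proteasome subunit.

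The proteasome is the machine that degrades proteins tagged with ubiquitin. Its 20S core is a barrel of alpha and beta rings that holds the cutting sites, and its 19S cap binds the ubiquitin tag, removes it, unfolds the substrate with a ring of ATPases and feeds it into the barrel; core and caps together form the 26S particle. In immune-stimulated cells, inducible beta subunits replace the standard ones and PA28 rings can cap the barrel, and in skeletal muscle the ubiquitin-proteasome system is known for the breakdown of myofibrillar protein in fasting and disuse.

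Soleus muscles came from wild-type male C57BL/6J mice, 38 in number with a library from each, made by CAGE, which sequences the capped 5′ ends of RNA without amplification. Experiment 1 held 4 Pre mice (fed, day 1), 8 Mid mice (day 2, food removed to induce torpor in a cool chamber), 4 Post mice (day 3, food returned), 4 HiT mice (food removed at high ambient temperature, so that torpor was prevented), 4 Fed mice (kept cool with food left in place on day 2) and 4 Dep mice (food removed in the cool chamber, with torpor prevented by handling). Experiment 2 held 2 Pre, 5 Mid and 3 Post mice from a separate sampling. Labels and design text disagree with the study's methods on food (Fed is labelled as starvation, and HiT is given food), and the groups are named here as the methods describe them. Mid mice were taken at a fixed time and were not all in the depth of a torpor bout, and the soleus was sampled whole, so in these bulk samples fewer cells of a type and less RNA per cell cannot be told apart.

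Between 18257657 and 39176649 tags per library fell in clusters in experiment 1 and between 9359994 and 20914855 in experiment 2. All 7 slow muscle markers had clusters. HiT replicate 4 stood apart in composition, with a normalisation factor of 0.679 and 40.3% of its tags in its 10 largest clusters, and Fed replicate 2 carried 13747 CPM of red blood cell markers against 2813 to 5020 in the other Fed libraries. The 8 leukocyte and macrophage markers with a cluster summed to 351 to 806 CPM in HiT and to 104 to 176 in Mid. Levels below are tags per 1000000 (CPM) after TMM normalisation within 1 experiment (a scaling that evens out differences in library composition), and they are not comparable between experiments. CAGE counts 1 end per transcript, so levels of different genes need no scaling by length.

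The 40 clusters were 155 to 530 bp wide (median 253 bp), and 37 had their highest peak within 50 bp of the annotated 5′ end, so nearly all lie at the annotated first exons of their genes. The median member had 85.5 CPM in experiment 1 against 17.5 CPM over all clusters, from 8.76 CPM for Psmb10 to 332 CPM for Psmd7. By role there were 7 alpha ring genes, 7 standard beta ring genes, 2 inducible beta genes, 5 ATPases and 11 other subunits of the 19S cap, 3 assembly chaperones of the cap, 4 activators and 1 inhibitor. The alpha, standard beta, ATPase and other cap genes together are called the 30 core subunits of the 26S particle here. They leave out the ATPase Psmc2, which had no cluster, and cap subunits whose symbols lie outside the rule.

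Of the 13 genes that differed between Mid and Pre 7 have a RefSeq promoter window whose start lies within 50 bases of the CAGE peak. For these, the 150 bases before the RefSeq start or the peak, whichever comes first, are shown. The peak lies 45 bases after the RefSeq start in Psmd4, 9 in Psmd11 and 2 in Psmc6, so these stretches end short of it. The bases thus left out for Psmd4 hold CCAAT matches 44 to 40 and 25 to 21 bases before its peak. Capitals mark matches to the motifs searched, which are spelled out with the motif counts at the end. The stretches are chr11:80428465-80428614 on the plus strand for Psmd11, chr12:100110038-100110187 on the plus strand for Psmc1, chr3:95042615-95042764 on the minus strand for Psmd4, chr11:107479353-107479502 on the plus strand for Psmd12, chr14:45329674-45329823 on the plus strand for Psmc6, chr14:54618017-54618166 on the minus strand for Psmb5, chr14:55578300-55578449 on the plus strand for Psme1, all in GRCm38.p6 and written 5′ to 3′ along the gene.
Psmd11: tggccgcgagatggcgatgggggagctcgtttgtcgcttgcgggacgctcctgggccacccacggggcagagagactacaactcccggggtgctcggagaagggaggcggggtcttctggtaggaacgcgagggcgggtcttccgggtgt
Psmc1: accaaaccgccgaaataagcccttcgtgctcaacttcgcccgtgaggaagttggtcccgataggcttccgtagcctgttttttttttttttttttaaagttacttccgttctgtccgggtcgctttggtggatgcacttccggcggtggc
Psmd4: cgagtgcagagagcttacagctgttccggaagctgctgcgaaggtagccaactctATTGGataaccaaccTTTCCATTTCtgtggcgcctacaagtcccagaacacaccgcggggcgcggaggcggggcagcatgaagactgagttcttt
Psmd12: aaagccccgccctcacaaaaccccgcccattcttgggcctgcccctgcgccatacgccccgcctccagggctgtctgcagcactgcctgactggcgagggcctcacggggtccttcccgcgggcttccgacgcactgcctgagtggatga
Psmc6: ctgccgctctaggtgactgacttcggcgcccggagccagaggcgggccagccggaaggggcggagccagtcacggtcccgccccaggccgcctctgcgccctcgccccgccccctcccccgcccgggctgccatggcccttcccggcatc
Psmb5: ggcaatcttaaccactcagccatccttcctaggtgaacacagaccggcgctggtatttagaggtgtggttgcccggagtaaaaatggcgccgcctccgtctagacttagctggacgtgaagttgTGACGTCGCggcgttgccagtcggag
Psme1: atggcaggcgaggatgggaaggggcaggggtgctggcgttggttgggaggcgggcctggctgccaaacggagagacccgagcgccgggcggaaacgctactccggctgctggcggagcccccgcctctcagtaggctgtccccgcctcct
Psmd11, Psmd12, Psmc6 and Psme1 have GC-rich stretches (68.0%, 68.7%, 78.0% and 71.3% G or C), and those of Psmc1, Psmd4 and Psmb5 are lower at 50.7%, 56.0% and 56.7%. The stretch of Psmb5 holds the single antioxidant response element match, TGACGTCGC, 26 to 18 bases before its CAGE peak.

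The 19S cap held the genes that rose most from Pre to Mid. Food removal, torpor and the day changed together between these groups and cannot be told apart here. Psmd11, a lid subunit that joins the cap to the core, has its cluster at chr11:80428529-80428758 on the plus strand and measured 136, 125, 132 and 148 CPM in the 4 Pre mice. In the 8 Mid mice Psmd11 ran from 162 to 239 CPM with a median of 206, so that every Mid mouse was above every Pre mouse. The change was 0.60 on the log2 scale (SE 0.10), or 1.52-fold, with an FDR of 3.74e-05. Psmd8, another lid subunit (chr7:29180198-29180727, minus strand), measured 153, 149, 144 and 148 CPM in Pre and 176 to 258 CPM with a median of 214 in Mid, again without overlap, and rose by 0.52 (SE 0.08, FDR 1.42e-05).

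A further 6 core genes rose from Pre to Mid by smaller amounts. Psmc1, an ATPase of the base that helps open the gate of the barrel (chr12:100110130-100110360, plus strand), measured 42.1, 41.9, 35.1 and 39.3 CPM in Pre and 45.7 to 55.9 CPM with a median of 51.4 in Mid, a rise of 0.37 on the log2 scale (SE 0.07, FDR 0.000158). Psmd7, the partner of the deubiquitinase of the lid and the highest member, rose by 0.31 (SE 0.07, FDR 0.000774), from 297, 292, 308 and 301 CPM to a Mid range of 305 to 413 CPM. Psmd4, a ubiquitin receptor of the cap (chr3:95042512-95042673, minus strand), measured 60, 56.8, 62.4 and 58.3 CPM in Pre and 57.9 to 78.9 CPM in Mid, and rose by 0.28 (SE 0.07, FDR 0.00225). The Psmd4 groups overlapped in the lowest Mid mouse. The last of the 6 were Psmd12 (0.25), the ATPase Psmc6 (0.23) and Psma6 (0.17), and Psma6 was the 1 alpha ring gene called.

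**Figure D1:**
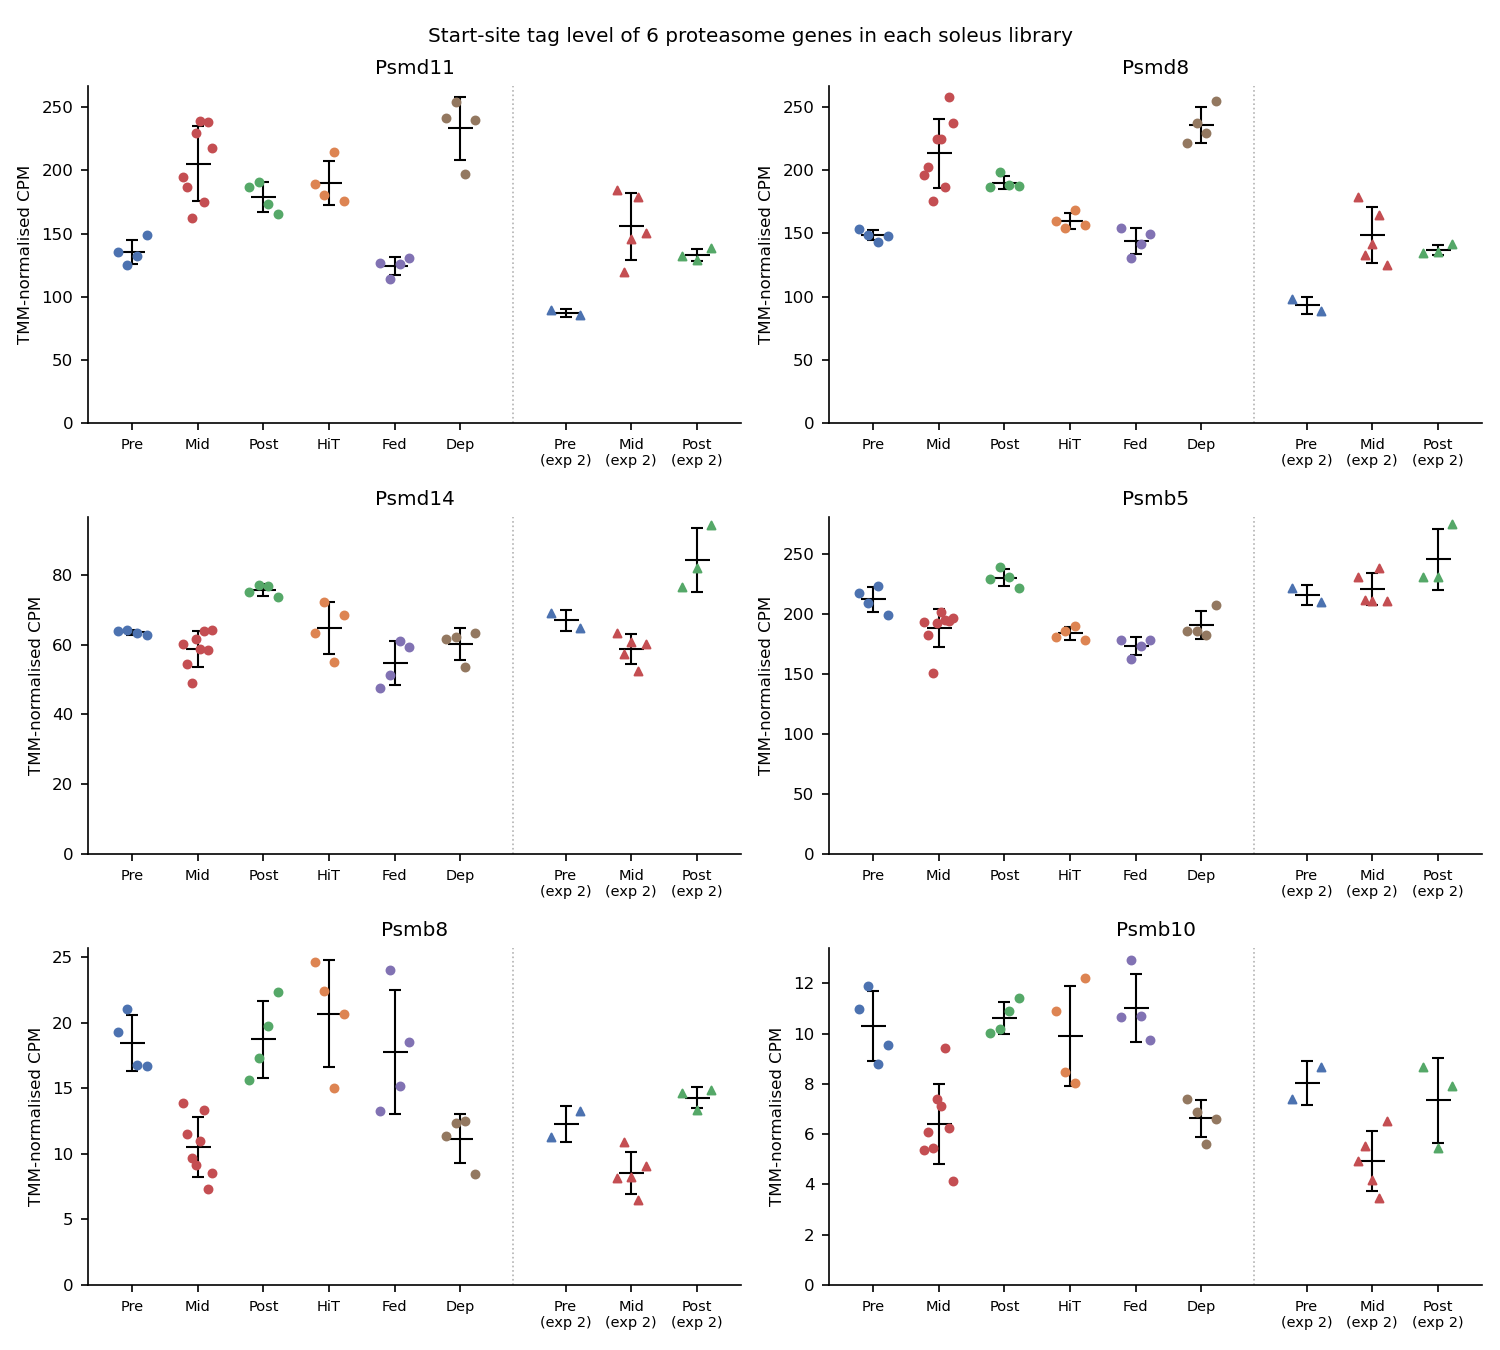
TMM-normalised tags per 1000000 (vertical axes, starting at 0) for 6 proteasome genes in each library, by group; circles are experiment 1, triangles are experiment 2 to the right of the dotted line, and bars give the mean ± SD. Psmd11 and Psmd8 stand higher in Mid and Dep than in Pre, Psmb8 and Psmb10 stand lower in Mid and Dep, and Psmd14 and Psmb5 reach their highest values in Post.

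Counted over all members, 8 rose and 5 fell from Pre to Mid by edgeR at an FDR below 0.05, against a background of 15.4% of the 10776 clusters tested called higher and 14.8% called lower. The share of members called, 13 of 40, is thus near the 30.2% of all clusters. All Mid mice lay above all Pre mice for 5 members and below them for 3, beside 7.54% and 7.31% of all clusters. The 2 directions fell in different classes. All 8 rises were among the 30 core subunits, 7 of them in the 19S cap, and 22 of the 30 had a positive change with a median of 0.10 on the log2 scale, beside 0.01 over all clusters. By class, 2 of 5 ATPases, 5 of 11 other cap subunits and 1 of 7 alpha genes rose, and none of the 7 standard beta genes did. Without TMM normalisation the count was 2 higher (Psmd11 and Psmd8) and 3 lower, and 17 of the 30 core changes were positive.

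None of the 3 catalytic genes of the standard core was called higher in Mid. Psmb5, the chymotrypsin-like site (chr14:54617824-54618051, minus strand), measured 217, 209, 223 and 199 CPM in Pre and 151 to 201 CPM with a median of 194 in Mid, a fall of 0.17 on the log2 scale with an FDR of 0.029 (SE 0.06). That call was lost when any of 6 libraries was left out. Psmb6, the caspase-like site, changed by -0.09 (SE 0.10, FDR 0.511), and Psmb7, the trypsin-like site, by 0.14 (SE 0.09, FDR 0.246). Psmd14, the deubiquitinase of the lid, measured 63.8, 64.3, 63.3 and 62.7 CPM in Pre and 48.9 to 64.3 CPM in Mid and was not called (-0.11, SE 0.08, FDR 0.279). The ATPase Psmc4 (0.10, FDR 0.235) and the alpha gene Psma1 (0.09, FDR 0.202) were not called either.

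Within a library, the summed level of the 16 core cap genes over that of the 14 core barrel genes was 1.32 ± 0.07 in Pre (SD, n = 4; range 1.27 to 1.41) and 1.52 ± 0.06 in Mid (SD, n = 8; range 1.42 to 1.61), with no overlap. The ratio was 1.36 in Post, 1.35 in HiT and 1.46 in Dep, each with an SD below 0.03, and 1.49 ± 0.18 in Fed (range 1.32 to 1.72). In experiment 2 it was 0.992 and 1.05 in the 2 Pre mice, 1.06 to 1.13 in Mid and 1.07 to 1.11 in Post, so that Mid and Post overlapped there. This ratio was looked at after the values were seen and is given without a test.

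**Figure D2:**
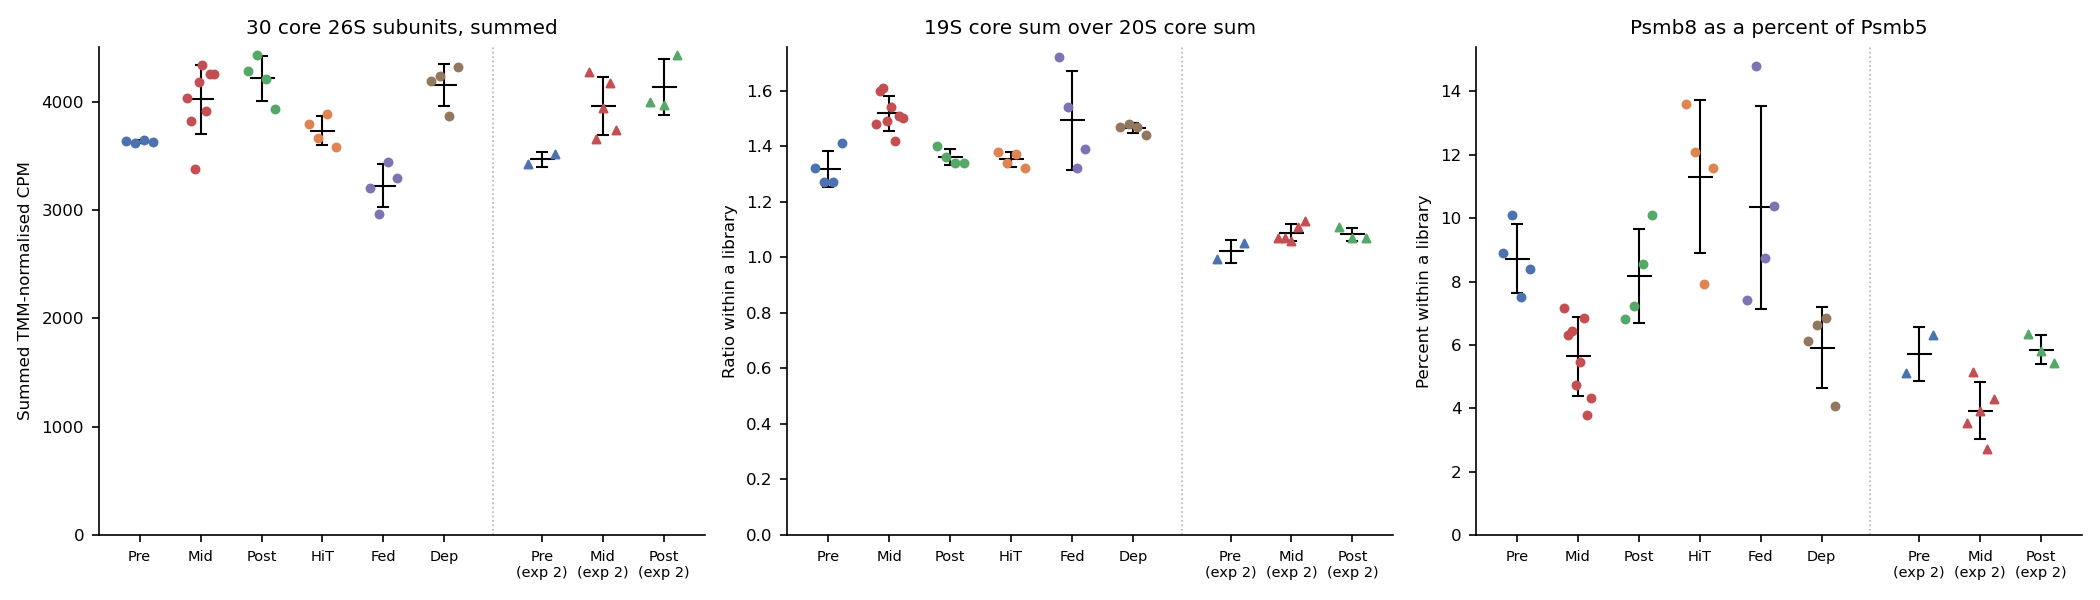
Left, summed TMM-normalised tags per 1000000 of the 30 core subunits; middle, the cap sum divided by the barrel sum within a library; right, Psmb8 as a percent of Psmb5 within a library; points are libraries, bars are mean ± SD, all axes start at 0, and experiment 2 is to the right of each dotted line. The core sum is lowest in Fed and highest in Post, and Psmb8 as a percent of Psmb5 is lowest in Mid and Dep.

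The inducible subunits and their cap moved the other way. Psmb8, which takes the place of Psmb5 in the immunoproteasome (chr17:34198279-34198472, plus strand), measured 19.3, 21, 16.8 and 16.7 CPM in Pre and 7.33 to 13.8 CPM with a median of 10.3 in Mid, without overlap. It fell by 0.81 on the log2 scale (SE 0.16, FDR 0.000523), to 0.57 of the Pre level. Psmb10, which takes the place of Psmb7 (chr8:105938016-105938222, minus strand), measured 11, 11.9, 8.8 and 9.54 CPM in Pre and 4.13 to 9.43 CPM with a median of 6.17 in Mid, and fell by 0.69 (SE 0.15, FDR 0.00103). One Mid mouse lay within the Psmb10 range of Pre.

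Psme1 and Psme2 encode the alpha and beta chains of the PA28 activator, which opens the barrel without ATP. Psme1 (chr14:55578257-55578572, plus strand) measured 52, 62, 51.6 and 57.3 CPM in Pre and 40.9 to 48 CPM in Mid, and Psme2 (chr14:55590834-55591181, minus strand) 46.6, 49, 45.4 and 40.7 CPM in Pre and 28.9 to 38.3 CPM in Mid. Neither pair of groups overlapped, and the falls were 0.33 (SE 0.07, FDR 0.000542) and 0.36 (SE 0.09, FDR 0.00405) on the log2 scale. The other activators, the nuclear PA28 gamma gene Psme3 (0.15, SE 0.15, FDR 0.486) and Psme4 (0.13, SE 0.15, FDR 0.559), and the inhibitor Psmf1 (0.13, SE 0.08, FDR 0.193) were not called. Within a library, Psmb8 stood at 8.72 ± 1.08% of the Psmb5 level in Pre (SD, n = 4) and at 5.64 ± 1.25% in Mid (SD, n = 8), and no library of either experiment was above 14.8%.

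Markers of other cells were measured beside these 4 falls. The 8 leukocyte and macrophage markers with a cluster (of 9 listed; Ptprc had none) summed to 122 to 208 CPM in Pre and 104 to 176 CPM in Mid, and 0 of 8 were called from Pre to Mid. The 6 interferon-inducible antigen presentation genes analysed here had a summed level from 403 to 623 CPM in Pre and from 306 to 744 CPM in Mid, and only Tap2 was called, lower by 0.56 on the log2 scale. The part of either list in the result was not tested.

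Experiment 2 measured the same contrast in mice that share no library with experiment 1. Psmd11 measured 89.6 and 85.2 CPM in Pre and 184, 120, 146, 179 and 151 CPM in Mid, a rise of 0.83 (SE 0.16, FDR 0.00939), and Psmd8 measured 97.7 and 88.3 CPM in Pre and 178, 133, 141, 164 and 125 CPM in Mid, a rise of 0.67 (SE 0.14, FDR 0.0151). Both genes had every Mid mouse above both Pre mice, a separation that was not counted over all clusters in this experiment. Psmd4 (0.46, FDR 0.0236) and the beta ring gene Psmb1 (0.34, FDR 0.0357) rose and Psme2 fell by 0.36 (FDR 0.0489), so that 4 members rose and 1 fell beside 5.3% and 4.44% of all clusters (9.74% in either direction). The Psme2 call was lost with any 1 Mid library left out. That of Psmb1 was lost without Mid replicate 9, 11 or 12, and that of Psmd4 without Mid replicate 12. Leaving out either Pre mouse left a single one, so the calls of experiment 2 rest on both Pre mice. Without Pre replicate 6 or 5 the changes were 0.81 or 0.87 for Psmd11 and 0.61 or 0.75 for Psmd8. They were 0.59 or 0.36 for Psmd4, 0.43 or 0.26 for Psmb1 and -0.19 or -0.50 for Psme2. Psmb8 (-0.51, FDR 0.0865), Psmb10 (-0.70, FDR 0.117) and Psme1 (-0.24, FDR 0.154) had negative changes that missed the threshold, and Psmb5 changed by 0.03 (FDR 0.893). The direction was shared by 12 of the 13 members called first (92.3%, beside 94% of all clusters called in experiment 1). No member was called for a difference between the experiments (percent called 0 over all clusters), where 0 members had an unadjusted p below 0.05, as did 551 of 10819 clusters; a likelihood ratio test called 4 clusters, 0 of them members.

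**Figure D3:**
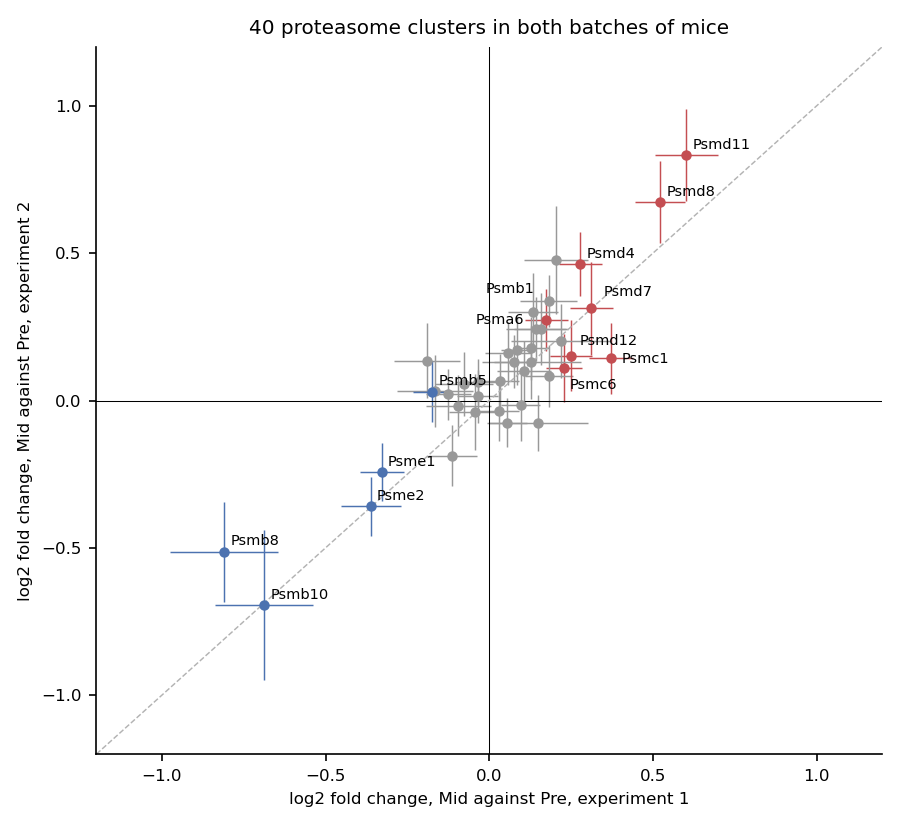
Log2 fold change of Mid against Pre for the 40 members in experiment 1 (horizontal axis) and experiment 2 (vertical axis); bars are 1 SE, the dashed line marks equal change, red and blue are members called higher and lower in experiment 1, and genes called in either experiment are named. Psmd11 and Psmd8 lie farthest to the upper right (0.60 and 0.52 in experiment 1), and Psmb8 and Psmb10 farthest to the lower left.

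Post against Mid compared day 3, with food returned, with day 2. Return of food, the end of torpor and the day changed together and cannot be told apart here. In experiment 1, 12 members rose and 1 fell beside 17.5% of clusters called in each direction and 35% in either. The count was 2 higher and 0 lower without TMM normalisation, and 19 and 0 with upper-quartile scaling. All Post mice lay above all Mid mice for 10 members and below them for 0, beside 9.04% and 7.98% of clusters. Psmb8 measured 15.6, 17.3, 19.7 and 22.3 CPM in Post, above every Mid mouse, and rose by 0.83 (SE 0.16, FDR 0.000318). Psmb10, at 10, 10.2, 10.9 and 11.4 CPM in Post, rose by 0.73 (SE 0.15, FDR 0.000439), and Psme2 rose by 0.39 (SE 0.09, FDR 0.00175). Between Post and Pre, neither Psmb8 (0.02, SE 0.19, FDR 0.982) nor Psmb10 (0.05, SE 0.17, FDR 0.948) was called.

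Of the standard core, 8 genes rose from Mid to Post, 3 alpha, 3 beta, 1 ATPase and 1 other cap gene. Psmd14 measured 75, 77.1, 76.7 and 73.6 CPM in Post, above the highest Mid mouse at 64.3 CPM, and rose by 0.36 (SE 0.08, FDR 0.000522). Psmb5 rose by 0.29 (SE 0.06, FDR 0.00046) to 229, 239, 230 and 222 CPM, again above every Mid mouse, and the beta gene Psmb3 (0.36, FDR 0.0173) and the alpha gene Psma2 (0.33, FDR 0.0131) rose too. Psmd11 (-0.20, SE 0.09, FDR 0.107) and Psmd8 (-0.16, SE 0.08, FDR 0.0929) stayed between the Mid and Pre levels and were not called, with 187, 191, 174 and 165 CPM for Psmd11 in Post. Psmd7 was the 1 member that fell (-0.17, FDR 0.0466), a call lost in 10 of the 12 fits that left out a library and under 6 of the other alternatives. In experiment 2 the count was 3 higher and 0 lower beside 7.73% and 8.65% of clusters, with rises of Psmb8 (0.73, FDR 0.00696), Psmd14 (0.52, FDR 0.00301; Post 76.4, 81.8 and 94.2 CPM, Mid 52.4 to 63.4 CPM) and Psme2 (0.29, FDR 0.0499; lost with any 1 of the 8 libraries left out). All Post libraries of experiment 2 shared a sequencing lane with 1 Mid library, and with lane as a term 0 members rose there.

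Post set against Pre compared the day after refeeding with the first day. Here 4 members rose and 0 fell, beside 1.05% and 0.798% of clusters (1.85% in either direction): Psmd11 (0.41, FDR 0.0492), Psmc1 (0.36, FDR 0.0123), Psmd8 (0.36, FDR 0.0299) and Psmd12 (0.29, FDR 0.0347). All 30 core changes were positive with a median of 0.20 on the log2 scale. Without TMM normalisation they remained positive but 0 members were called. The calls of Psmd11 and Psmd8 were lost with any 1 of the 8 libraries left out, that of Psmd12 in 7 of the 8 cases and that of Psmc1 in 2, and with Pre replicate 3 left out 0 members were called.

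Mid against HiT set fasting in the cool chamber against fasting at high temperature, where torpor was prevented. Temperature and torpor changed together and cannot be told apart in this comparison. Here 10 members were higher and 5 lower in Mid, beside 19.2% and 21.8% of clusters (41% in either direction). Psme4, an activator of the barrel found mainly in the nucleus, measured 59, 48.5, 49.3 and 34.3 CPM in HiT and 59.9 to 107 CPM with a median of 78.3 in Mid, a difference of 0.72 (SE 0.16, FDR 0.000654) without overlap. In HiT it was also lower than in Pre (64, 65.8, 79.3 and 79.1 CPM; -0.59, SE 0.18, FDR 0.0107). The cap genes Psmd8 (0.42, FDR 0.00011), Psmc1 (0.41, FDR 2.52e-05), Psmd4 (0.31, FDR 0.000602) and Psmd12 (0.27, FDR 0.00136) were higher in Mid than in HiT, and the inhibitor Psmf1 was too (0.23, FDR 0.0189). Psmd8 measured 160, 154, 168 and 156 CPM in HiT, below every Mid mouse. All Mid mice lay above all HiT mice for 4 members and below them for 3, beside 7.4% and 11.4% of clusters.

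Psmd11 was not called between Mid and HiT. It measured 189, 180, 215 and 176 CPM in HiT, within the Mid range, and the difference between Mid and HiT was 0.11 (SE 0.09, FDR 0.354). Against Pre it was higher in HiT by 0.49 (SE 0.11, FDR 0.000964). HiT differed from Pre by food removal, ambient temperature and day, which cannot be told apart. In all, 3 members were higher and 2 lower in HiT than in Pre, beside 18.5% and 14.9% of clusters (33.4% in either direction), the others being the assembly chaperones Psmd5 (0.53, FDR 0.0202) and Psmd10 (0.26, FDR 0.0271), Psmb5 (-0.21, FDR 0.0222) and Psme4. The Psmd5 change was 0.30 (FDR 0.167) without HiT replicate 3, and the Psmd10 call was lost with any of 4 libraries left out. Without TMM normalisation 0 members were called in that comparison, and for Mid against HiT the count was 3 higher and 3 lower.

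The inducible genes were lower in Mid than in HiT as well. Psmb8 measured 24.6, 22.4, 15 and 20.7 CPM in HiT and was lower in Mid by 0.98 on the log2 scale (-0.98, SE 0.16, FDR 3.71e-05), Psmb10 differed by -0.63 (SE 0.15, FDR 0.00158), Psme2 by -0.56 (FDR 2.4e-05), Psmd10 by -0.31 (FDR 0.00269) and Psme1 by -0.22 (FDR 0.0103). Psme2 measured 49, 48.3, 59 and 52.8 CPM in HiT, above every Mid mouse. Here leukocyte markers moved too. All 8 with a cluster were higher in HiT than in Pre and lower in Mid than in HiT, and their sum was 351 to 806 CPM in HiT. In Mid against HiT, 2 of 6 interferon-inducible antigen presentation genes and 3 of 5 tendon and fibroblast markers were also lower. There 3 of 7 slow and 2 of 6 fast muscle markers were higher (1 fast marker was lower). Between HiT and Pre, 3 of 4 red blood cell, 3 of 7 slow muscle and 2 of 6 fast muscle markers were lower in HiT. So were 1 of 5 adipocyte, 1 of 5 tendon and fibroblast and 1 of 3 endothelium markers, and 0 in these lists were higher. The part of these lists in the differences was not tested, and neither Psmb8 (0.17, SE 0.19, FDR 0.538) nor Psmb10 (-0.06, SE 0.17, FDR 0.825) was called between HiT and Pre.

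Mid against Fed, both kept cool, gave the largest count. Mid differed from Fed by food removal and by torpor, which cannot be told apart in this comparison. Of 40 members 25 were higher and 4 lower in Mid, beside 16.6% and 18.6% of clusters (35.2% in either direction), and 23 of the 30 core genes were higher with a median of 0.27 on the log2 scale. Called genes were found in every core class, 6 of 7 alpha genes, 4 of 7 beta genes, 4 of 5 ATPases and 9 of 11 other cap genes. Psmd11 (0.72, SE 0.10, FDR 3.21e-06), at 127, 114, 126 and 131 CPM in Fed, and Psmd8 (0.56, SE 0.08, FDR 4.28e-06) led, followed by the alpha gene Psma5 (0.49, FDR 6.64e-05), Psmb1 (0.49, FDR 0.000117) and Psmd4 (0.47, FDR 7.82e-06; Fed 53.9, 49.3, 53.9 and 51.3 CPM). The 4 lower members were both inducible beta genes and the PA28 alpha and beta genes, Psmb10 (-0.78, FDR 0.000228), Psmb8 (-0.76, FDR 0.000893), Psme1 (-0.28, FDR 0.00185) and Psme2 (-0.24, FDR 0.0487; lost in 9 of the 12 fits that left out a library).

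Fed was also set against Pre, both with food, on day 2 and day 1. Here 0 members were higher and 12 lower in Fed, beside 5.88% and 5.32% of clusters (11.2% in either direction), and 29 of the 30 core changes were negative with a median of -0.19. The largest falls were Psmb3 (-0.41, FDR 0.0478), Psma2 (-0.38, FDR 0.0385), Psma5 (-0.38, FDR 0.0157), Psmb2 (-0.35, FDR 0.0307) and the lid gene Psmd13 (-0.35, FDR 0.0088), which measured 58, 51.2, 66.9 and 60.8 CPM in Fed and 72.5, 74.1, 73.1 and 81.4 CPM in Pre. The inducible genes were not called, with changes of -0.06 for Psmb8 (SE 0.19, FDR 0.887) and 0.09 for Psmb10 (SE 0.17, FDR 0.777). The count of 12 changed with single libraries: 1 member was lower without Fed replicate 2, 2 without Fed replicate 1, between 3 and 5 without any 1 of the 4 Pre mice, and 18 without Fed replicate 3. It was 0 without TMM normalisation, 1 with only the 2 groups in the fit and 6 with a replicate block. In Mid against Fed, 19 members were higher without Fed replicate 1 and 19 without Fed replicate 2, and 2 were higher and 3 lower without TMM normalisation.

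Red blood cell markers also differed between Mid and Fed. All 4 with a cluster were lower in Mid, with sums of 2989 to 4237 CPM in Mid and 2813 to 13747 CPM in Fed. Of 6 interferon-inducible antigen presentation genes, 2 were lower in Mid than in Fed and 0 higher. The part of either list in the counts was not tested. Over the 6 groups of experiment 1, the group with the lowest mean was Fed for 28 of the 30 core genes, and the group with the highest was Post for 20, Dep for 7 and Mid for 3. The summed level of the 30 core genes was 3630 ± 13.7 CPM in Pre, 4021 ± 317 in Mid, 4213 ± 209 in Post, 3732 ± 135 in HiT, 3225 ± 200 in Fed and 4152 ± 197 in Dep (SD; n = 8 in Mid and 4 in the others). By the deposited TPM it was 3340 ± 543 in Fed and 3342 ± 794 in HiT, and 3667 ± 256 in Pre and 3694 ± 296 in Dep (SD, n = 4).

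Dep mice were fasted in the cool chamber like the Mid mice but kept from torpor by touch. Between Dep and Mid, 0 of 40 members were called by edgeR beside 2.03% of clusters (1.16% higher and 0.872% lower), 1 member had an unadjusted p below 0.05, and DESeq2 called 0. Psmd11 measured 242, 254, 197 and 240 CPM in Dep (0.18 against Mid, SE 0.09, FDR 0.283) and Psmd8 222, 237, 229 and 254 CPM (0.14, SE 0.07, FDR 0.293). Psmb8 stood at 11.4, 12.4, 12.5 and 8.44 CPM (0.09, SE 0.17, FDR 0.816) and Psmb10 at 7.39, 6.89, 5.62 and 6.62 CPM (0.05, SE 0.16, FDR 0.89).

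Against Pre, 10 members were higher and 3 lower in Dep, beside 13.7% and 12.1% of clusters (25.8% in either direction). Dep differed from Pre by food removal, handling and day, which cannot be told apart. All Dep mice lay above all Pre mice for 13 members and below them for 4, beside 15.6% and 15.3% of clusters. Psmd11 rose by 0.78 (SE 0.11, FDR 7.71e-06) and Psmd8 by 0.67 (SE 0.09, FDR 3.76e-06), and both groups were without overlap. Psmd5 (0.49, FDR 0.0391; lost with any of 6 libraries left out), Psmc1 (0.38, FDR 0.000633) and the beta gene Psmb4 (0.37, FDR 0.0155) followed, and Psmb8 (-0.72, FDR 0.00753), Psmb10 (-0.64, FDR 0.00929) and Psme1 (-0.34, FDR 0.00198) fell. Of 6 interferon-inducible antigen presentation genes, 1 was lower in Dep than in Pre and 0 higher, and the part of this list was not tested. The comparisons of Mid and of Dep with Pre share the same 4 Pre libraries. Without TMM normalisation 1 member was higher and 3 lower in Dep than in Pre, and 11 rather than 23 of the 30 core changes were positive.

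**Figure D4:**
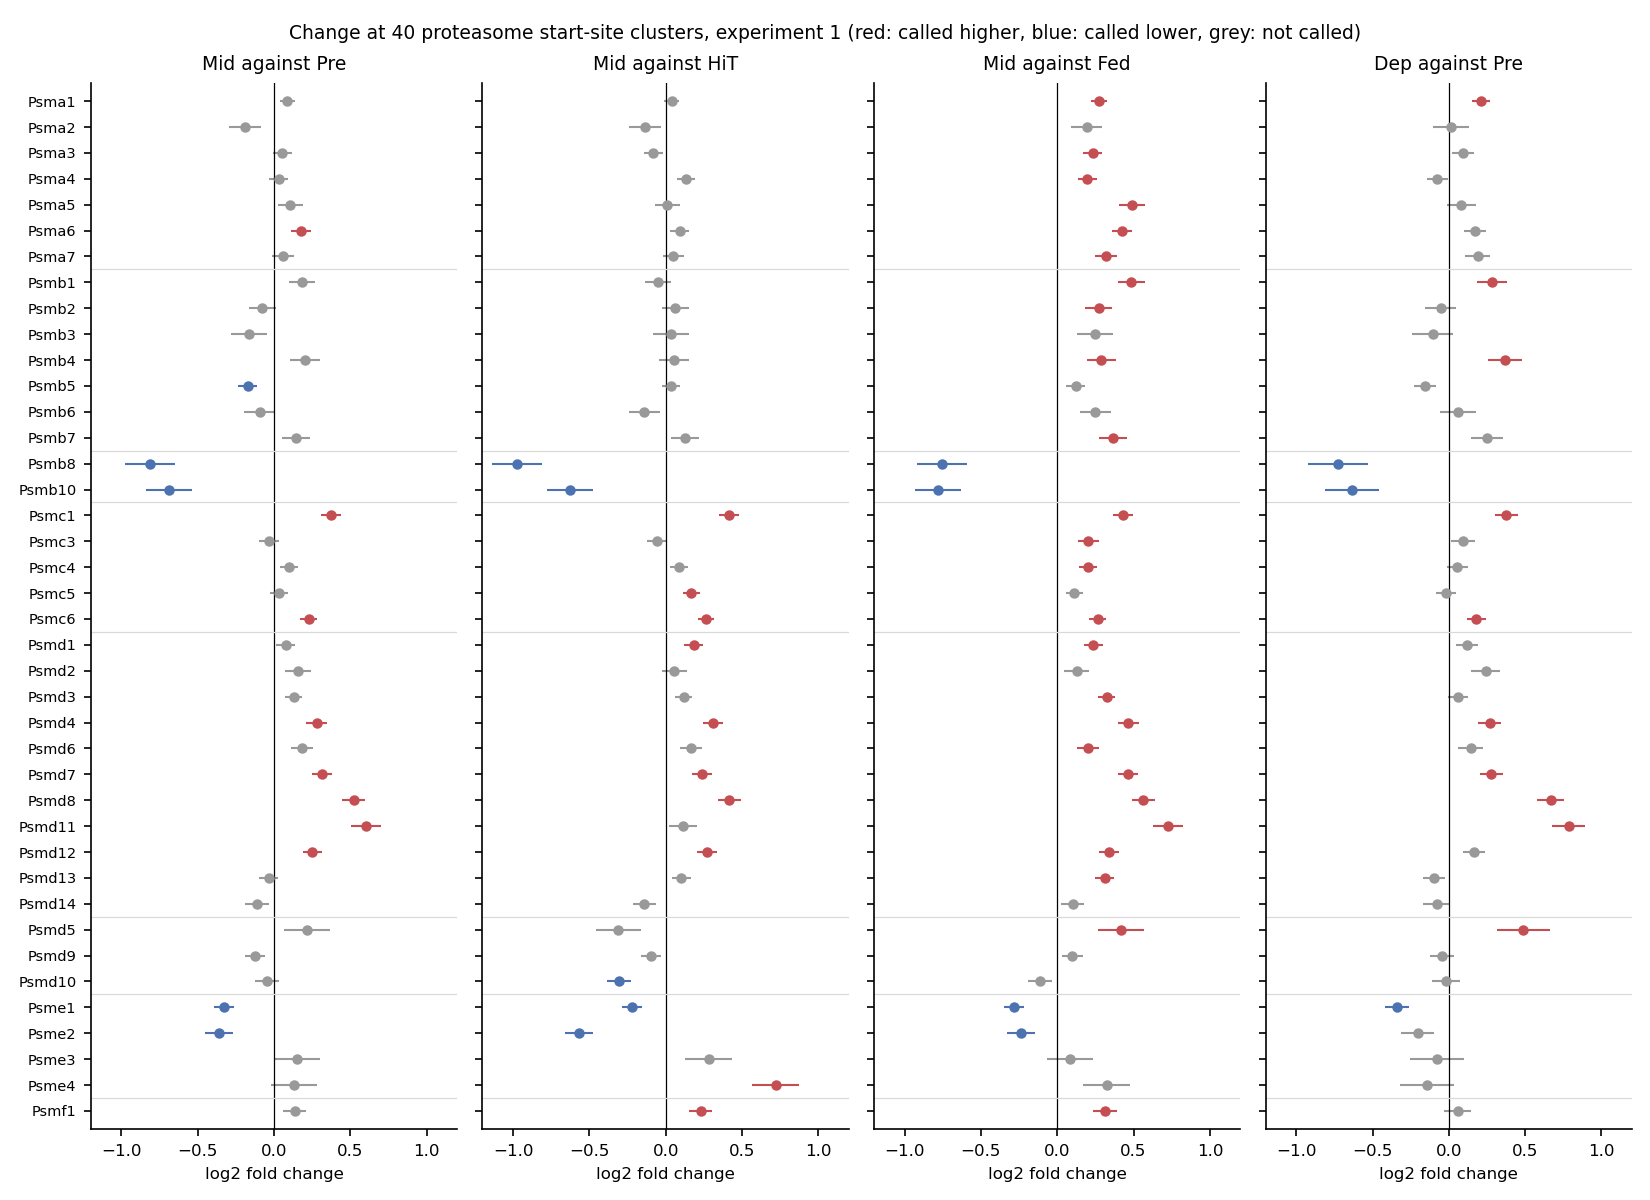
Log2 fold change (horizontal axes) of each of the 40 members in 4 comparisons of experiment 1, with bars of 1 SE; red was called higher, blue lower and grey not called at an FDR below 0.05, and pale lines separate the classes. Psmb8 and Psmb10 lie to the left in all 4 panels. Psmd11 lies to the right in all 4, least so in Mid against HiT, where it was not called.

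Companion genes of the pathway, from a list that held no member, were read in the same fits. From Pre to Mid 19 of the 43 with a cluster rose and 2 fell in experiment 1, and 8 rose and 0 fell in experiment 2, beside 15.4% and 14.8% of all clusters in experiment 1 and 5.3% and 4.44% in experiment 2. Of 8 muscle ubiquitin ligases 5 rose, led by Trim63 (2.42, SE 0.26) and Fbxo32 (1.42), the ligases best known from muscle atrophy, and by Fbxo30 (1.26) and Fbxo21 (1.11). Of 8 regulators of proteasome genes 6 rose, among them the transcription factors Foxo1 (1.14, FDR 9.08e-05) and Foxo3 (FDR 2.29e-05). Of 14 enzymes and shuttles bound to the proteasome 5 rose, and of 6 ubiquitin and activating enzyme genes 2 did. A further list held assembly factors and the free subunits Adrm1 and Sem1. Of its 7 genes with a cluster 1 rose and 2 fell, the core chaperones Psmg3 (-0.62) and Psmg4 (-0.20). The summed level of the 8 ligases was 644 ± 31.8 CPM in Pre, 1537 ± 357 in Mid and 638 ± 10.1 in Post (SD, n = 4, 8 and 4), beside 3630, 4021 and 4213 CPM for the core subunits.

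RefSeq promoter windows of 300 bases (250 before the start) were matched for 34 of the 40 members, and 24 of these had the CAGE peak within 50 bases of the RefSeq start. The antioxidant response element TGACNNNGC, searched on both strands, had a match in 6 of the 34 windows and in 12.4% of all 32851 windows. GTAAACA, a forkhead word, had a match in 0 of 34 and in 3.65% of all windows. The interferon-stimulated response element had a match in 4 of 34 and in 3.44% of all windows, the gamma-activated site TTCNNNGAA in 2 of 34 and in 8.3%, and CCAAT in 10 of 34 and in 37.4%. No matches of different motifs overlapped. Psmd4, shown above, holds an interferon-stimulated response element match 125 to 116 bases before its peak, on the strand opposite to the gene. The match of Psme1 lies 53 to 62 bases after its peak, also on the opposite strand, and so outside the stretch shown. The windows of Psmb8, Psmb10 and Psmd8 start too far from their CAGE peaks to be shown.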

How the data were processed

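Start-site counts of 38 CAGE libraries of mouse soleus muscle were analysed. Reads were trimmed and mapped by the authors to mm10 (BWA and HISAT2 are named in the submitters' processing notes), and 5′ ends were clustered with PromoterPipeline. The deposited counts are whole tags per cluster after tags that map to several places were shared out by the authors; the deposited TPM values are these counts per 1000000 tags of the library. The first 100 bases of the transcripts of 8 members (Psma2, Psma3, Psmb5, Psmb6, Psmc1, Psmd11, Psmd13 and Psme1) share a word of 27 bases with an annotated processed pseudogene, so their levels are uncertain to that extent.

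Clusters were assigned with GENCODE vM21. Counts were tested with edgeR 4.0.16 in R 4.3.3 (quasi-likelihood F test, TMM normalisation, 1 fit per experiment with group as the term, all clusters with any tag: 10776 and 10816). Benjamini-Hochberg FDR ran over all clusters tested, and a member was called below 0.05; that is the threshold wherever "called", "rose" or "fell" is used. SE is the log2 fold change divided by the square root of F. The tests were checked on simulated counts. No 2 libraries of a group were alike (lowest chi-square per cluster over 72 pairs, 12.5). Counting error is largest for Psmb10 and Psmb8, with as few as 31 and 58 tags in a Mid library of experiment 2.

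Members named are a fixed set of 16 symbols (Psmb9 without a cluster) and, in each comparison, up to 5 called members in each direction with the largest change. The members and lists were chosen with earlier results of these data known. Alternatives were DESeq2 1.42.0, other scalings and tests, a replicate block, other sets of libraries, and each library left out in turn. The sums of core genes were computed from CPM and from TPM. Libraries were mapped by their titles, and each is 1 mouse.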

Additional observations from a re-analysis of the deposited data

Results flagged for a closer look

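Dixon's limit was applied to 203 groups of 4 to 10 libraries, over the 28 named members and the summed TPM of the core subunits. In 13 groups an end library lay farther from its neighbour than this limit, where chance flags about 1 in 20. All 13 were groups of named members. Low values were those of Psmb4 (120 CPM against 160 for the next), Psmb5 (151 against 182) and Psmb6 (150 against 199) in Mid replicate 3, of Psmb4 (159 against 200), Psmc1 (46.4 against 52.9) and Psmd14 (53.5 against 61.7) in Dep replicate 3, and of Psme1 in HiT replicate 2 (47.4 against 52.9). High values were those of Psmb4 (188 against 169) and Psmd8 (198 against 188) in Post replicate 2, of Psmb5 in Dep replicate 4 (208 against 186), of Psmb7 in Pre replicate 2 (118 against 108), of Psma1 in HiT replicate 4 (57.4 against 55.8) and of Psmf1 in Mid replicate 13 of experiment 2 (12.5 against 10.7). Mid replicate 3 and Dep replicate 3 had 3 flags each, all of them low.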

How the results depend on the processing

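No called change of a named member took the opposite sign, and the other called members were not checked for this. The balance of counts turned without TMM normalisation in Mid against Pre, in Mid against Fed and in Dep against Pre. Positive core changes then went from 23 to 11 of 30 in Dep against Pre and from 18 to 2 in HiT against Pre. Without TMM normalisation, members higher/lower were 2/3 (Mid against Pre), 2/0 (Post against Mid), 3/3 (Mid against HiT), 2/3 (Mid against Fed), 0/0 (Post against Pre, HiT against Pre and Fed against Pre), 1/3 (Dep against Pre) and 2/0 (Mid against Pre, experiment 2), while the median of all clusters moved to -0.117 in Mid against Fed, 0.113 in Mid against HiT, -0.133 in HiT against Pre and -0.179 in Dep against Pre. With upper-quartile scaling 19 members rose and 0 fell in Post against Mid (5 rose in experiment 2), 5 were lower in HiT against Pre and 6 higher in Dep against Pre. With only the groups compared in the fit, 4 rose in Mid against Pre, 0 fell in Post against Mid, 9 rose in Post against Pre, 1 fell in Fed against Pre and 0 fell in Mid against Pre of experiment 2. With all 38 libraries in 1 fit, 13 rose in Mid against Pre, 19 rose and 0 fell in Post against Mid, 15 rose in Post against Pre, and 4 fell in Mid against Pre. The likelihood ratio test left 0 lower in Post against Mid, DESeq2 gave 7 higher in Post against Pre, and lane 3 alone gave 2 higher and 0 lower in Mid against Pre of experiment 2, while lane as a term left 0 higher in Post against Mid there.

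With the replicate number as a block, 6 members were higher in Mid against HiT, 15 in Mid against Fed, 0 lower in Post against Mid and 6 lower in Fed against Pre. The numbers do not pair mice: same-numbered libraries correlated at -0.0045 on average (-0.49 to 0.48 over 60 pairs), and 4 of 24 libraries correlated best with their own number.

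Leaving out 1 library in turn gave ranges of members higher and lower. Numbers higher were 7 to 10 (Mid against Pre), 8 to 14 (Post against Mid), 8 to 12 (Mid against HiT) and 19 to 28 (Mid against Fed). They were 0 to 3 (Post against Pre), 1 to 3 (HiT against Pre) and 7 to 11 (Dep against Pre). In experiment 2 at most 4 were higher in Mid against Pre, where leaving out either Pre mouse left a single one. Post against Mid of experiment 2 gave 2. Numbers lower, in the same order, were 4 to 5, 0 to 3, 4 to 5, 3 to 4, 0, 1 to 4, 3, 0 to 1 and 0. Fed against Pre gave 1 to 18 lower. Dep against Mid gave 0 throughout. The core sum by deposited TPM was 3667 in Pre, 3852 in Mid, 4067 in Post, 3342 in HiT, 3340 in Fed and 3694 in Dep, so that Fed no longer stood below HiT nor Dep clearly above Pre; in experiment 2 it was 3303 in Pre and 3624 in Mid. By TMM-normalised CPM, Dep was 4152, and Pre and Mid of experiment 2 were 3466 and 3956. The cause of these shifts was not tested. Psmb10, the lowest member, is the one for which tag number limits precision most. For single named members, apart from libraries left out, FDR calls were lost most often without TMM normalisation (49 changes) and gained most often with all 38 libraries in 1 fit (16 changes).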
